A study of Arabidopsis thaliana with 6 samples.

Results

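The genes described here are 10 regulators through which Arabidopsis seedlings read light and shade: the phytochrome-interacting factors PIF1, PIF3, PIF4, PIF5 and PIF7, the related helix-loop-helix genes PIL1 and HFR1, the bZIP genes HY5 and HYH, and the homeodomain gene ATHB2. They were taken by locus identifier, and all 10 were found among the 32548 genes of both deposited tables. By the labels, RNA-seq came from 6 libraries of 2-week-old seedlings grown at 23 °C on nutrient plates. The cycle was 16 h light and 8 h dark. The genotype comparison has 2 libraries labelled epl1a/b, homozygous at both genes by the labels, and 2 of wild type Col-0, the standard laboratory accession. A separate comparison has 1 Col-0 library from plates wrapped in foil for a dark treatment and 1 from Col-0 in the light. The length of the dark treatment, the alleles of the mutant and the number of independent lines are not given in the sources used here. EPL1A and EPL1B encode Enhancer of polycomb-like proteins, which belong to NuA4, a complex that acetylates histones, and the series asks what NuA4 contributes to chlorophyll synthesis and photosynthesis.

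PIF proteins are bHLH transcription factors that build up in darkness and in shade, where they promote elongation and, through PIF1 and PIF3, hold back chlorophyll synthesis. Light-activated phytochromes bind them and send most of them to degradation. HY5 acts in the other direction: it promotes light development, is destroyed in darkness through the COP1 ubiquitin ligase, and shares many target promoters with the PIFs. PIL1, HFR1 and ATHB2 are textbook early shade genes, which PIFs activate. HFR1 protein in turn binds PIFs and keeps them off DNA. PIF7 is the PIF known for its part in shade and warmth responses of light-grown plants.

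Depth was close to equal in the genotype comparison, with 18796289 to 19088784 reads per library recovered from the deposited values, and was 18798088 counts in the dark library, against 27831231 in the light library. The label was checked first. EPL1A (AT1G16690), named by RefSeq only as Enhancer of polycomb-like, as is EPL1B (AT1G79020), had 93.8 and 79.2 normalised counts in the libraries labelled epl1a/b, against 282 and 225 in wild type, but EPL1B had 4656 and 4399 in libraries labelled epl1a/b, against 335 and 351 in wild type. The EPL1B transcript was thus higher where the label names a mutant, so every direction is stated for libraries by that label. Green tissue markers, 6 genes such as LHCB1.3 and RCA, summed to 25365 and 25356 CPM in the libraries labelled epl1a/b, against 45654 and 42889 in wild type. In the genotype libraries CPM are recovered reads scaled to equal library totals, which is not the scaling of the normalised counts. In the dark and light libraries CPM are counts scaled with TMM. The median log2 change of the green markers was -1.18 on normalised counts and -0.94 on equal library totals. These markers were above 0 in every library. The 9 seed storage and oil body markers summed to 6921 CPM in the dark library, against 25.7 for light, and to 4.40 and 2.94 CPM in the libraries labelled epl1a/b, against 0.372 and 0.319 in wild type. In the libraries labelled epl1a/b 4 and 6 of the 9 were at 0, and in wild type 6 and 6. SESA1 had 27 recovered reads in epl1a/b replicate 1 and 0 in the other genotype libraries. Of the 9 markers 3 could be tested between genotypes and 2 rose. SESA4 had 36 and 39 recovered reads in the libraries labelled epl1a/b, against 1 and 1 in wild type. CRA1 had 16 and 16, against 5 and 2, and its call was lost with DESeq2 (log2 change 1.94). The CRA1 call was also lost without epl1a/b replicate 1 (1.77), epl1a/b replicate 2 (1.77) or wild type replicate 2 (1.26). The part of the green and seed markers in the genotype results was not tested. In whole seedlings, fewer cells of a type and less RNA per cell cannot be told apart.

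Among the 10 regulators, HY5 and HYH rose and PIF1 and PIF3 fell in the libraries labelled epl1a/b, at a Benjamini-Hochberg adjusted p under 0.05 in a limma fit over all 23658 genes listed at 1 or more in 2 or more libraries. All 10 passed that filter. The other 6 did not pass the test. Calls were frequent in the whole table, with 46.7% of genes called, 22.5% higher and 24.1% lower, so 4 of 10 is a share near the background. The median log2 change of the 10 was 0.13, beside 0.02 over all genes tested. Locations below are those of the protein-coding genes in the RefSeq annotation of TAIR10.1.

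HY5 (AT5G11260, chromosome 5, 3593335 to 3595073, minus strand), the bZIP factor that promotes light development, had 585 and 734 normalised counts in the libraries labelled epl1a/b, against 336 and 309 in wild type. Both values with the mutant label lay above both wild type values, and the level was 2.03-fold higher (log2 change 1.02 ± 0.12 SE, adjusted p in limma = 0.000404). HYH (AT3G17609, chromosome 3, 6023844 to 6024710, plus strand), its close homologue with overlapping functions, had 1319 and 1516 normalised counts in libraries labelled epl1a/b, against 724 and 676 in wild type. It was 2.02-fold higher (log2 change 1.02 ± 0.09 SE, adjusted p in limma = 9.16e-05), again with no overlap. Both calls held under all 13 alternatives tried, with log2 changes from 0.86 to 1.26 for HY5 and from 0.91 to 1.25 for HYH.

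The promoters of this pair are shown because their transcripts moved together and because some hexamers that PIFs and HY5 bind are known. The windows are the 300 bases before the outermost annotated transcript start, read from the RefSeq genome TAIR10.1, on the minus strand at chr5:3595074-3595373 for HY5 and on the plus strand at chr3:6023544-6023843 for HYH. PIF5, at chr3:21830838-21831137 on the minus strand, is added because it held the G-box. Each runs 5′ to 3′, and capitals mark the G-box CACGTG or the PIF-binding hexamer CACATG, whose other strand reads CATGTG.
HY5: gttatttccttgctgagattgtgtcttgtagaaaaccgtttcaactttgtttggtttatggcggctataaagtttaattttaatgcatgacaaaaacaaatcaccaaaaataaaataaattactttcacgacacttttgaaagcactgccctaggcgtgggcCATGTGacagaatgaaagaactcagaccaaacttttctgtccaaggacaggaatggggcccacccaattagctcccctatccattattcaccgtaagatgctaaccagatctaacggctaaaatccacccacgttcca
HYH: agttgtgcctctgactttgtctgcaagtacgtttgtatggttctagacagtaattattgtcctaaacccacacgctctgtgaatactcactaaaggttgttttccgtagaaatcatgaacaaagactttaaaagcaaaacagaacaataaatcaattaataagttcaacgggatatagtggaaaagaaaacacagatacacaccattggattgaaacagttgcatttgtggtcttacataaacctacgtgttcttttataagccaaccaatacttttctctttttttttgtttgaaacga
PIF5: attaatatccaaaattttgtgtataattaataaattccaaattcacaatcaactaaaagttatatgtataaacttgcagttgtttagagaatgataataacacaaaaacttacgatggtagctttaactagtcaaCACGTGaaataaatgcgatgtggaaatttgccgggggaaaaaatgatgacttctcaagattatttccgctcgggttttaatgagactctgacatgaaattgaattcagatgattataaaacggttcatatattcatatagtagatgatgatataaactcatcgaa
Both hexamers were searched on both strands, and no position can match both. The HY5 window held CATGTG with its first base 138 bases before the start. The PIF5 window held CACGTG 165 bases before the start. In the HYH window and in those of the other 7 regulators neither hexamer was found. Binding sites of other sequence, or outside the 300 bases, were not searched. Over 27443 protein-coding promoters of the same length, 7.09% held the G-box and 13% held the other hexamer, so 1 of 10 for each is near the share in all promoters.

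PIF1 (AT2G20180, chromosome 2, 8704024 to 8707009, minus strand), which represses germination and chlorophyll synthesis in the dark, had 644 and 618 normalised counts in the libraries labelled epl1a/b, against 972 and 915 in wild type. The genotypes did not overlap and PIF1 was 1.49-fold lower (log2 change -0.58 ± 0.08 SE, adjusted p in limma = 0.000729). This call also held under all 13 alternatives, with log2 changes from -0.62 to -0.34, the smallest when libraries were scaled to equal totals. PIF3 (AT1G09530, chromosome 1, 3075768 to 3079654, plus strand), which acts with PIF1 in keeping dark-grown seedlings from greening, had 529 and 387 normalised counts in libraries labelled epl1a/b, against 633 and 715 in wild type. It was also 1.49-fold lower (log2 change -0.57 ± 0.15 SE, adjusted p in limma = 0.0231), but its libraries with the mutant label differed more from each other. The PIF3 call was lost without epl1a/b replicate 2 (log2 change -0.35), wild type replicate 1 (-0.66) or wild type replicate 2 (-0.48), and on equal library totals (-0.33). PIF1 shares 5.7% of its exon bases with a gene on the other strand that had at most 1.80 normalised counts, and 3.61% of its 50-base exon words occur elsewhere in the genome. That share was 0% for the other 9 regulators.

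PIF4 and PIF5, the PIFs best known for elongation growth, had the highest normalised counts of the 5 PIFs listed here and did not pass. PIF4 (AT2G43010, chromosome 2, 17886101 to 17889087, plus strand) had 2184 and 1839 normalised counts in the libraries labelled epl1a/b, against 2520 and 2304 in wild type (log2 change -0.27 ± 0.10 SE, adjusted p in limma = 0.0574). With the replicate number as a block PIF4 passed (adjusted p = 0.0385), and on equal library totals its log2 change was -0.03. PIF5 (AT3G59060, chromosome 3, 21827905 to 21830837, minus strand) had 3879 and 3802 in libraries labelled epl1a/b, against 4192 and 4114 in wild type (log2 change -0.11 ± 0.07 SE, adjusted p in limma = 0.209). The genotypes did not overlap for either gene, but the direction of PIF5 depended on the scaling, with 0.13 on equal library totals. PIF7 (AT5G61270, chromosome 5, 24638491 to 24640765, minus strand) had 762 and 713 normalised counts in libraries labelled epl1a/b, against 728 and 656 in wild type, and the genotypes overlapped (log2 change 0.09 ± 0.09 SE, adjusted p in limma = 0.409). On equal library totals PIF7 had a log2 change of 0.33 and passed (adjusted p = 0.0127).

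**Figure D1:**
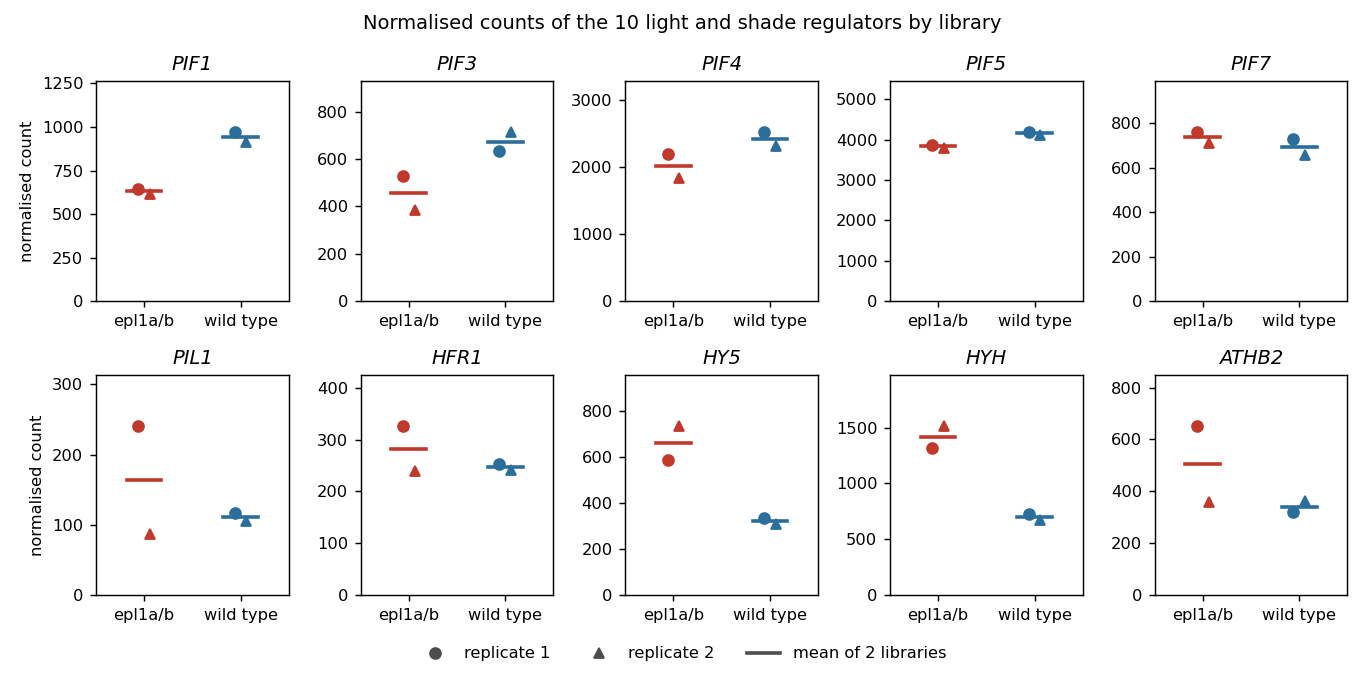
Normalised counts (y axis, starting at 0) of each regulator in the 2 libraries labelled epl1a/b and the 2 of wild type, with circles for replicate 1, triangles for replicate 2 and bars for the mean of 2 libraries. HY5 and HYH lie higher in the libraries labelled epl1a/b without overlap, PIF1 and PIF3 lie lower, and PIL1 and ATHB2 have 1 high epl1a/b library.

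The early shade genes PIL1, HFR1 and ATHB2 did not pass, and in each epl1a/b replicate 1 was the highest of the 4. PIL1 (AT2G46970, chromosome 2, 19295431 to 19297858, minus strand), a PIF relative that restrains shade growth, had 241 and 87.0 normalised counts in the libraries labelled epl1a/b, against 117 and 106 in wild type. The log2 change of PIL1 was 0.38 ± 0.54 (SE), with an adjusted p in limma of 0.609. ATHB2 (AT4G16780, chromosome 4, 9449114 to 9450905, plus strand), an HD-ZIP factor that promotes shade elongation, had 653 and 357 in libraries labelled epl1a/b, against 322 and 361 in wild type (log2 change 0.50 ± 0.32 SE, adjusted p in limma = 0.279). HFR1 (AT1G02340, chromosome 1, 465616 to 467880, minus strand), the HLH protein that sequesters PIFs, had 327 and 239 in libraries labelled epl1a/b, against 253 and 242 in wild type (log2 change 0.17 ± 0.15 SE, adjusted p in limma = 0.384). In all 3 the genotypes overlapped, and HFR1 passed under none of the 13 alternatives. Without epl1a/b replicate 2, PIL1 had a log2 change of 1.11 (adjusted p = 0.0168) and ATHB2 one of 0.94 (adjusted p = 0.0143), and both passed. Without epl1a/b replicate 1 the values were -0.35 for PIL1, 0.07 for ATHB2 and -0.053 for HFR1.

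The libraries labelled epl1a/b differed from each other in these 3 genes. Counting error alone does not describe the spread between replicates here, since the mean chi-square per gene was 7.19 between the libraries labelled epl1a/b and 7.02 between those of wild type, where counting error alone gives about 1. Replicate 1 over replicate 2 was 2.77 for PIL1 (95% counting interval 2.13 to 3.40), 1.83 for ATHB2 (1.61 to 2.05) and 1.37 for HFR1 (1.16 to 1.60). PIF3 also stood higher in replicate 1, with a ratio of 1.37 (1.20 to 1.54). The wild type ratios were 1.11 for PIL1, 0.892 for ATHB2 and 1.05 for HFR1, with intervals that span 1. Intervals of other wild type ratios did not span 1, among them 0.885 for PIF3 (0.792 to 0.989) and 1.39 for IAA29 (1.02 to 1.93). Of 17454 genes with a mean of at least 50, 2.14% were more than 1.5-fold higher in epl1a/b replicate 1 than in replicate 2. Among the 10 regulators 2 were, PIL1 and ATHB2, and among the 12 genes of that level in a list of PIF-activated shade and elongation genes 3 were. Those 3 were the auxin response repressor IAA29 (83.3 and 9.95 normalised counts in epl1a/b replicates 1 and 2, a ratio of 8.37), the phytochrome import gene FHL (47.9 and 20.3, a ratio of 2.36) and the auxin synthesis gene YUC9 (105 and 64.8, a ratio of 1.62). HY5 and HYH went the other way, with ratios of 0.797 (0.722 to 0.887) and 0.870 (0.813 to 0.935). These genes were picked out after their values were seen. Some root markers also differed between the libraries labelled epl1a/b. The 7 genes summed to 115 CPM in replicate 1 and 157 in replicate 2, against 122 and 118 in wild type, none of them at 0. Their median log2 change between genotypes was -0.31 on normalised counts and -0.07 on equal library totals, the scaling of these CPM. The 7 genes did not move together. AT5G43350 had 1051 and 1430 recovered reads in epl1a/b replicates 1 and 2, against 729 and 749 in wild type. NRT2.1 had 195 and 227, against 23 and 24. CASP1 had 354 and 510, against 629 and 627. COBL9 had 141 and 275, against 328 and 301, and EXPA7 had 131 and 245, against 235 and 219. In CASP1, COBL9 and EXPA7 epl1a/b replicate 1 was the lowest library, with replicate ratios of 0.689, 0.502 and 0.523. In normalised counts EXPA7 had 216 in epl1a/b replicate 2, against 248 and 227 in wild type, so the side of replicate 2 depended on the scaling. MYB36 and AT5G48940 had epl1a/b replicate ratios of 1.02 and 1.05. The part of the root markers in the ratios was not tested.

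**Figure D2:**
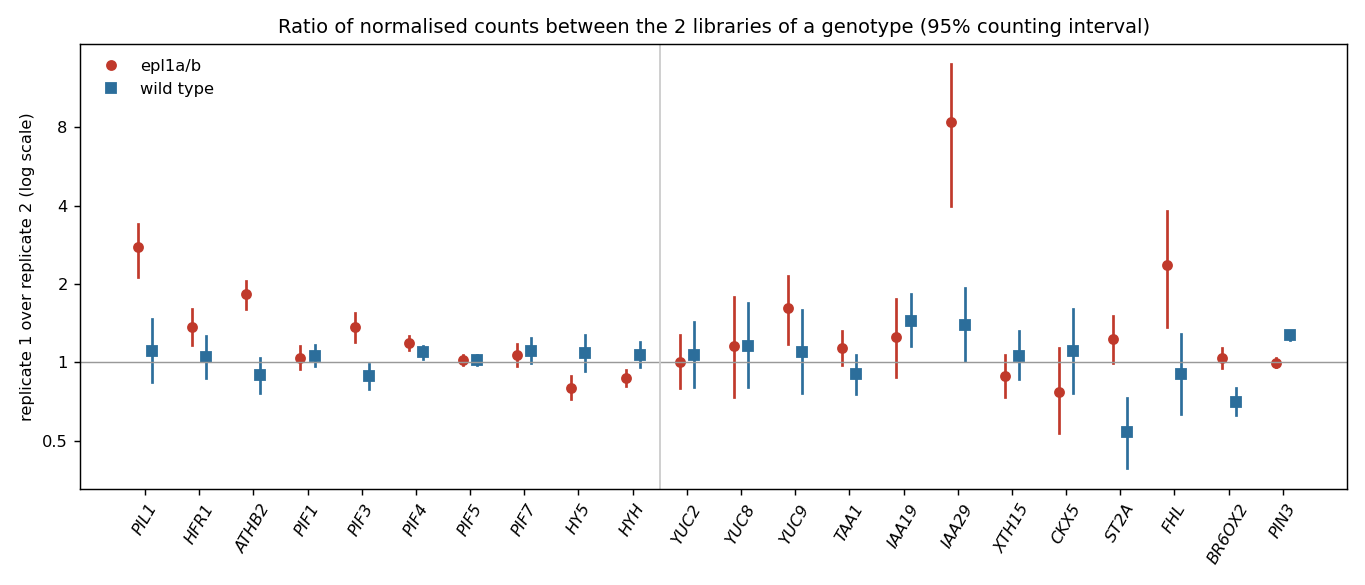
Replicate 1 over replicate 2 of the normalised count (y axis, log scale) for the 10 regulators, left of the grey line, and 12 PIF-activated genes, with circles for epl1a/b, squares for wild type and lines for the 95% counting interval. The epl1a/b ratio is 2.77 for PIL1, 1.83 for ATHB2 and 8.37 for IAA29, while that of HY5 is 0.797.

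Levels were compared between genes as normalised counts per kilobase of exon. In the libraries labelled epl1a/b the order began with HYH at 1830 ± 180 (SD, n = 2) and PIF5 at 1500 ± 21.3, whereas in wild type PIF5 led at 1622 ± 21.5, followed by PIF4 at 929 ± 58.6 and HYH at 903 ± 44.3. PIF4 and HYH did not differ beyond their spread in wild type. HY5 stood at 525 ± 83.9 in the libraries labelled epl1a/b and at 257 ± 14.8 in wild type, where ATHB2 (256 ± 20.6) and PIF3 (244 ± 21.0) lay within its spread. PIL1 was the lowest of the 10 in both, at 95.1 ± 63.2 in the libraries labelled epl1a/b and 64.7 ± 4.59 in wild type.

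The dark and light pair shows how the same genes stand in a library labelled dark, against one labelled light. The labels give both the same age, but seed storage and oil body markers summed to 6921 CPM in dark, against 25.7 in light. In this pair darkness and a difference in stage or tissue cannot be told apart. With 1 library per condition there is no replicate check and no test, and intervals cover counting error only. All 10 regulators differed by more than 2-fold, 6 higher and 4 lower in the dark library. Of the 21128 genes whose counts summed to 10 or more, 15.7% were more than 2-fold higher and 19.4% more than 2-fold lower. The median log2 ratio, dark over light, of the 10 was 1.16, beside -0.02 over all those genes. All 9 seed storage and oil body markers were more than 2-fold higher in the dark library, and their part in the ratios of the regulators was not tested. Leaving those 9 genes out of the scaling left every count of regulators past 2-fold as it was. That step hardly changed the scaling, with PIF1 at a log2 ratio of 1.2106, against 1.2101 with them. It therefore cannot show what part a difference in stage or tissue has in the ratios.

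PIL1 and HFR1 had the highest dark over light ratios of the 10. PIL1 had 635 counts (31.2 CPM) in the dark library, against 23 counts (0.894 CPM) in the light library, a 31.9-fold higher level with a counting interval of 23.1 to 55.5. HFR1 had 1602 counts (78.8 CPM) in the dark library, against 140 (5.44 CPM) for light, 14.3-fold higher (12.2 to 17.3). ATHB2 had 836 counts (41.1 CPM) in the dark library, against 369 (14.3 CPM) for light, 2.86-fold higher (2.53 to 3.25).

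The PIF genes divided. PIF3 had 2602 counts (128 CPM) in the dark library, against 944 (36.7 CPM) in the light library, 3.48-fold higher (3.24 to 3.76). PIF1 had 1125 counts (55.3 CPM) in the dark library, against 614 (23.9 CPM) for light, 2.31-fold higher, with a counting interval that reaches up to 2.56 and stays above 2-fold. The PIFs of elongation growth were lower: PIF4 had 827 counts (40.7 CPM) in the dark library, against 2644 (103 CPM) for light, 2.52-fold lower (2.34 to 2.74), and PIF5 had 467 (23.0 CPM) in the dark library, against 2695 (105 CPM) for light, 4.55-fold lower (4.13 to 5.04). PIF7 stood apart, with 9 counts (0.443 CPM) in the dark library, against 551 (21.4 CPM) in the light library, 40.6-fold lower (25.3 to 106). PIF7 shares 16.3% of its exon bases with AT5G61260 on the other strand, which had 111 counts in the dark library, against 63 in the light library. Whether counting used strand is not given, so reads of that shared stretch are uncertain.

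HY5 and HYH, which rose together in the libraries labelled epl1a/b, were on opposite sides here. HY5 had 646 counts (31.8 CPM) in the dark library, against 380 (14.8 CPM) in the light library, 2.14-fold higher (1.89 to 2.45). That interval reaches below the 2-fold line. HYH had 84 counts (4.13 CPM) in the dark library, against 301 (11.7 CPM) for light, 2.79-fold lower (2.22 to 3.65). Per kilobase of exon, HFR1 and PIF3 led the dark library, with 51.8 and 46.3 CPM. PIF5 and PIF4 led the light library, with 40.9 and 39.6 CPM. Levels were not compared between the genotype libraries and this pair, since the tables were scaled separately.

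**Figure D3:**
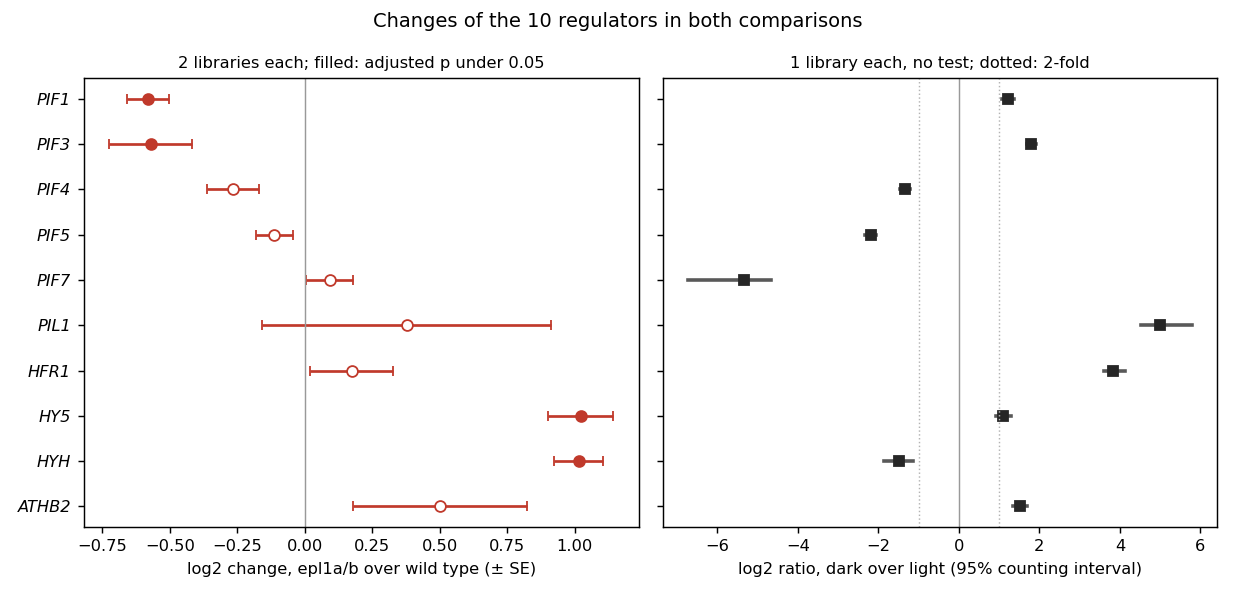
Log2 change in epl1a/b over wild type (left, circles with SE, filled where the adjusted p is under 0.05) and log2 ratio of dark over light (right, squares with 95% counting intervals, dotted lines at 2-fold) for each regulator. HY5 and HYH lie right of 0 on the left and on opposite sides on the right, and PIF7 and PIL1 lie farthest out on the right, on opposite sides.

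Relatives and downstream genes of the pathway were described as 5 lists. Their genotype calls are to be read against the 22.5% of all genes called higher and 24.1% called lower. Their dark ratios are to be read against the 15.7% of all genes more than 2-fold higher in the dark library and 19.4% lower. Of 8 other genes of the bHLH group that holds the PIFs, 7 could be tested in the genotype comparison and 1 passed. That gene, UNE10 (AT4G00050, also known as PIF8), which restrains phytochrome A responses, had 2540 and 2944 normalised counts in the libraries labelled epl1a/b, against 1062 and 1017 in wild type. It was 2.63-fold higher (log2 change 1.40 ± 0.09 SE, adjusted p in limma = 1.58e-05), a call that held under all 13 alternatives. In the dark and light pair 5 of the 8 could be compared. Of these 4 were more than 2-fold higher in the dark library and 1, UNE10, was lower. UNE10 had 138 counts in the dark library, against 495 in the light library, 2.81-fold lower (2.34 to 3.45). The largest dark ratios of this list were those of AT4G28800, from 23 counts in dark, against 1 in light (ratio 9.69 with the prior count, interval 4.73 to 1199 without it), and PIF6, from 65 counts in dark, against 11 in light (6.38-fold higher, 3.92 to 15.7). Other genes overlap 88.9% of the exon bases of PIF6, so its counts are uncertain.

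Of 9 other HD-ZIP II genes, the family of ATHB2, 2 rose and 2 fell, with a median log2 change of 0.03. At 4 of 9 the share called is near the 46.7% of all genes. ATHB4, another shade gene, had 81.2 and 47.3 normalised counts in the libraries labelled epl1a/b, against 28.5 and 30.1 in wild type, 2.08-fold higher (adjusted p in limma = 0.0217). The call was lost without epl1a/b replicate 1 (log2 change 0.67), wild type replicate 1 (1.02) or wild type replicate 2 (1.09). HAT3, which acts with ATHB2 and ATHB4 in leaf development, had 173 and 134 in libraries labelled epl1a/b, against 281 and 263 in wild type (log2 change -0.83 ± 0.15 SE, adjusted p in limma = 0.00272), lost without wild type replicate 1 (-0.78). HAT2, an auxin-induced member, had 450 and 384 in libraries labelled epl1a/b, against 604 and 564 in wild type (log2 change -0.49 ± 0.10 SE, adjusted p in limma = 0.00609), lost without epl1a/b replicate 2 (-0.38) or wild type replicate 1 (-0.44), and on equal library totals (-0.25). HAT9 was the other rise (log2 change 0.49 ± 0.15 SE, adjusted p in limma = 0.0292), and it was lost when any 1 of the 4 libraries was left out (0.40 to 0.57), with the replicate block and with DESeq2. On equal library totals the list had 3 higher calls and 1 lower, with DESeq2 0 and 2, and without wild type replicate 1 it had 0 of either. In the dark library 3 of the 9 were more than 2-fold higher, where 15.7% of all genes compared were. HAT22 had 2086 counts in the dark library, against 544 in the light library (4.84-fold higher, 4.41 to 5.34), and ATHB4 had 163 in dark, against 44 in light (4.51-fold higher, 3.34 to 6.70). The other was HB18, with 15 counts in dark, against 8 in light (2.07-fold higher), and its interval of 0.944 to 6.46 spans 1.

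Among 7 HLH cofactors of the shade response 1 rose and 3 fell in the libraries labelled epl1a/b, with a median log2 change of -0.35, where 46.7% of all genes were called. With DESeq2 the list had 1 higher and 1 lower call. KDR, an HLH protein that binds HFR1, had 316 and 261 normalised counts in libraries labelled epl1a/b, against 905 and 600 in wild type, 2.56-fold lower (adjusted p in limma = 0.00568), a call that held under all 13 alternatives. BNQ2 (AT5G15160), an HLH protein that does not bind DNA (log2 change -0.63 ± 0.18 SE, adjusted p in limma = 0.0214) and PAR2, a shade-induced brake on elongation (-0.41 ± 0.13 SE, adjusted p in limma = 0.0311), were the other falls. The rise was that of BIM1, a bHLH factor of brassinosteroid signalling (0.39 ± 0.07 SE, adjusted p in limma = 0.00309). BNQ2 was lost without epl1a/b replicate 1 (-0.57), epl1a/b replicate 2 (-0.69) or wild type replicate 2 (-0.45), and PAR2 when any 1 of the 4 libraries was left out (-0.45 to -0.37). On equal library totals BNQ2 (-0.39) and PAR2 (-0.17) did not pass, nor did PAR2 with the replicate block or either gene with DESeq2. In the dark library 5 of the 7 were more than 2-fold higher, where 15.7% of all genes compared were. PRE5 had 121 counts there, against 31 in the light library (4.67-fold higher, 3.31 to 7.58), while BNQ2 had 13 in dark, against 125 in light (6.81-fold lower, 4.29 to 14.7).

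Of 15 PIF-activated shade and elongation genes 2 rose, 3 fell and 10 did not pass, with a median log2 change of 0.11, where 46.7% of all genes were called. IAA19, an auxin response repressor that PIF4 activates, had 69.3 and 55.6 normalised counts in the libraries labelled epl1a/b, against 201 and 139 in wild type, 2.67-fold lower (adjusted p in limma = 0.00149), and held under all 13 alternatives. FHL had 47.9 and 20.3 in libraries labelled epl1a/b, against 67.6 and 74.7 in wild type (log2 change -1.16 ± 0.38 SE, adjusted p in limma = 0.0432), lost without epl1a/b replicate 2 (-0.56), wild type replicate 1 (-1.23) or wild type replicate 2 (-1.09), on equal library totals (-0.92), with a pseudocount of 0.1, with the replicate block and with DESeq2, so that FHL was called under 6 of the 13 alternatives. XTH33, a cell wall enzyme gene, had 64.6 and 65.6 in libraries labelled epl1a/b, against 34.7 and 23.9 in wild type (log2 change 1.15 ± 0.26 SE, adjusted p in limma = 0.00845), lost without epl1a/b replicate 1 (1.16), epl1a/b replicate 2 (1.14) or wild type replicate 2 (0.89). The remaining calls were the auxin synthesis gene YUC8 (-0.72 ± 0.22 SE, adjusted p in limma = 0.0316) and the brassinosteroid synthesis gene BR6OX2 (0.71 ± 0.16 SE, adjusted p in limma = 0.0142). YUC8 was called under 6 of the 13 alternatives and was lost when any 1 of the 4 libraries was left out (-0.82 to -0.61), on equal library totals (-0.48), with the replicate block and with DESeq2. BR6OX2 was lost without epl1a/b replicate 1 (0.69) or replicate 2 (0.74). On equal library totals 7 members rose and 1 fell, and without epl1a/b replicate 1 or 2 the count of rises was 0. In the dark library 7 of 15 were more than 2-fold higher and 1 lower, beside 15.7% and 19.4% of all genes compared. XTH15, which loosens cell walls, had 24842 counts in the dark library, against 361 in the light library, 86.5-fold higher (78.5 to 96.9), with 31.6% of its exon bases overlapped by another gene. ST2A, which inactivates jasmonates, had 2736 counts in dark, against 106 in light, 32.0-fold higher (26.9 to 40.0).

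Genes that HY5 activates were mostly higher in the libraries labelled epl1a/b. Of 11 members 7 rose, 2 fell and 2 did not pass, with a median log2 change of 0.89 beside 0.02 over all genes tested. That is 9 of 11 called, where 46.7% of all genes were called, 22.5% higher and 24.1% lower. The early light-induced protein genes ELIP2 and ELIP1, which protect the photosynthetic apparatus under strong light, rose most. ELIP2 had 2921 and 4253 normalised counts in libraries labelled epl1a/b, against 90.0 and 126 in wild type, 32.7-fold higher (adjusted p in limma = 0.000293). ELIP1 had 2858 and 3920 in libraries labelled epl1a/b, against 374 and 460 in wild type, 8.05-fold higher (adjusted p in limma = 0.00018). MYB12, a flavonol regulator, had 184 and 262 in libraries labelled epl1a/b, against 84.5 and 87.1 in wild type, 2.54-fold higher (adjusted p in limma = 0.000847). These 3 calls held under all 13 alternatives. The members that fell were the nitrate reductase gene NIA2 (log2 change -0.49 ± 0.08, SE) and the Rubisco gene RBCS1A (-0.85 ± 0.10, SE), which is also a green tissue marker. All 6 green tissue markers fell, with a median log2 change of -1.18, and their part in this list's values was not tested. Without wild type replicate 1 the count of rises was 4, and CHS (0.64), CHI (0.67) and FLS1 (0.92) were lost. Without epl1a/b replicate 2 it was 5, and CHS (0.60) and CHI (0.72) were lost. CHS, CHI and FLS1 are enzymes of flavonoid synthesis.

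In the dark library the HY5-activated genes lay on the low side, while HY5 itself was higher there. Of 10 that could be compared 6 were more than 2-fold lower and 1, ELIP1, was higher, with a median log2 ratio of -1.58. The ratio of ELIP1 was 2.12, and its counting interval of 1.86 to 2.43 reaches below the 2-fold line. Over all genes compared, 19.4% were more than 2-fold lower and 15.7% higher. F3H, the member left out, had 0 counts in both libraries, and a gene on the other strand overlaps 93.8% of its exon bases. MYB12 had 19 counts in the dark library, against 106 in the light library, 4.12-fold lower (2.69 to 7.61), and NIA2 had 5852 in dark, against 28878 in light, 3.90-fold lower (3.79 to 4.01). Green tissue markers, all 6 more than 2-fold lower in the dark library and none at 0, moved with them at 13654 CPM in the dark library, against 63567 in the light library. Their part in these ratios was not tested.

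**Figure D4:**
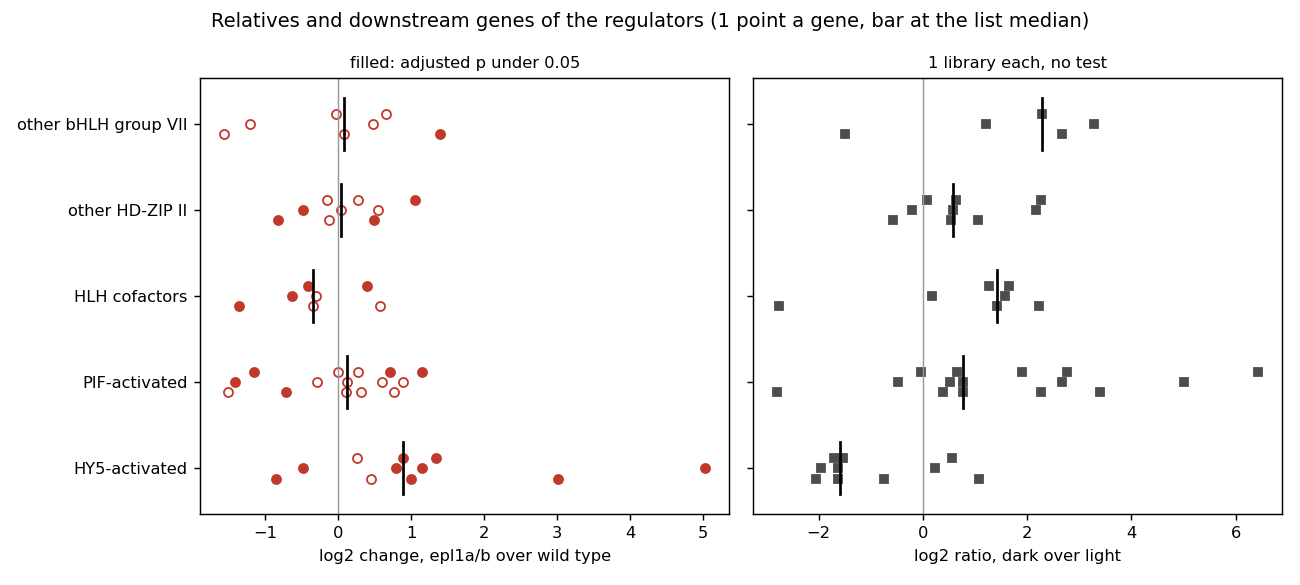
Log2 change in epl1a/b over wild type (left, circles, filled where the adjusted p is under 0.05) and log2 ratio of dark over light (right, squares) for each gene of the 5 pathway lists, with a bar at each list's median. The HY5-activated list has its median at 0.89 on the left and at -1.58 on the right.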

How the data were processed

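The genotype table holds, by the deposited file's header, a normalised count signal scaled by the authors. The dark and light table, as deposited, holds whole-number counts for each gene. The submitters' processing notes name HISAT2, featureCounts, edgeR and the TAIR10 build, without versions or roles, and the labels' protocols give single-end 50 bp and paired-end 150 bp reads without saying which library had which. Inverting edgeR's library-size equalisation gave whole reads for 32548 of 32548 genes (tolerance 1e-06). Their totals and those of the counts set the depth and the counting intervals.

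The main test was limma 3.58.1 (R 4.3.3) on log2(value + 1), with trend and robust settings, genotype only, over genes at 1 or more in 2 or more libraries. Fold changes on this scale understate those of low genes. The plan named this test for normalised values. edgeR 4.0.16 and DESeq2 1.42.0 were run on the recovered reads as alternatives. Dark and light counts were scaled with TMM to CPM, with a prior count of 2 in ratios, and intervals are exact 95% Clopper-Pearson intervals from the counts, for counting error only. The fit was tested on simulated data.

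The regulators and lists were chosen with earlier results of these data known. The text names all 10 regulators and, of each pathway list, the 3 called genes with the largest log2 change and the 2 with the largest dark ratio. Genes named as replicate differences, exceptions or lost calls were chosen after their values were seen. Symbols of named genes follow RefSeq names or synonyms by locus, or the locus itself, except EPL1A, EPL1B and the added name PIF8. The labels do not state separate cultures for the 2 libraries per genotype, so p-values measure only their spread, and that spread could be technical. The titles of the libraries labelled epl1a/b also carry the name of a histone mark, but their other labels give total RNA, and they were used as RNA-seq.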

Additional observations from a re-analysis of the deposited data

How the results depend on the processing

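On equal library totals 8738 genes were higher and 3650 lower, so that 70.5% of calls were higher, against 48.3% as deposited, and the median over all genes was 0.25 against 0.02 (log2). Of the regulators it gave 3 higher, PIF7 added, left 1 lower, PIF1, and turned PIF5 to 0.13. Leaving out each library in turn gave 2660 to 3689 higher and 3836 to 4147 lower genes, 2 to 4 regulators higher and 1 to 2 lower, with log2 changes from -0.35 to 1.11 for PIL1 and from -0.053 to 0.40 for HFR1. A fit on fewer libraries has less power. The other causes were not tested. With the replicate number as a block, 4578 genes were higher and 5099 lower, with 2 regulators higher and 3 lower. The numbers were not taken to pair the samples, since same-numbered libraries deviated with a correlation of -0.14. A block with crossed pairing, chosen after seeing the data, gave 5353 higher and 5585 lower genes, and 4 higher calls among the PIF-activated genes. For dark against light, scaling by library totals gave a median log2 ratio of 0.21 over all genes, against -0.02, with 20.5% of genes more than 2-fold higher and 15.1% lower. All 10 regulators stayed past 2-fold on the same side under each of the 5 alternatives, but not all of these could move them. Dropping the count filter leaves their ratios unchanged by construction. With DESeq2 size factors, and without the seed markers, the log2 ratio of PIF1 was 1.21, as in the main scaling. On library totals it was 1.44. Depth limits PIF7 in the dark library and PIL1 in the light library, which rest on 9 and 23 counts.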
